A study of Danio rerio with 4 samples.

Results

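Many genes give more than 1 mature RNA from the same DNA. A transcription start can be taken from different promoters, internal exons can be kept or skipped, and the last exon can be one of several. The resulting transcripts can encode proteins that differ by a few residues or by a whole domain, and in vertebrate embryos muscle and nervous tissue are known for exchanging such forms as they mature.

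The data described here are the shares of individual transcripts within their gene in whole zebrafish embryos. The deposited annotated count file lists 22962 transcripts and gives each of them, in each library, a share from 0 to 1 of its gene. The transcripts taken were those of genes with 2 or more listed transcripts and a gene count of at least 100 in each of the 4 libraries. That left 8437 transcripts of 2807 genes, out of 5288 genes with 2 or more listed transcripts and 13236 genes with any. The genes were chosen by their measured gene counts, and the shares themselves played no part in the choice. At the edge of the threshold, bmi1b was inside with gene counts of 100.0, 214.8, 212.9 and 257.4, and ucp1 was outside with 99.98, 172.4, 255.7 and 310.9, each in the order control A, control B, hace1 A, hace1 B. All sets of 4 values below follow this order.

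The embryos were of the Tübingen wild-type strain and were taken at 48 hours post fertilization (hpf). Both groups had been injected with a morpholino, a stabilised antisense oligonucleotide. The hace1 group received an oligonucleotide against a splice site in the part of the hace1 message that encodes the catalytic HECT domain, and hace1 encodes a ubiquitin ligase known to act on the GTPase Rac1. The control group received the supplier's standard control oligonucleotide, so there was no uninjected group. Each group had 6 RNA samples of about 100 embryos, pooled by 3, which gave 2 libraries per group, and each Ion Proton chip carried 2 libraries. A morpholino lowers or alters a message without changing the gene, and the labels name no mutant.

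The 2 injected oligonucleotides are the only designed sequences of the study. They are shown because the first acts on splicing itself, the process whose products are measured here.
hace1-HECT morpholino: ccctcgaactgttagacagaataaa
standard control morpholino: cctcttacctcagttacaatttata

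The targeted gene was not among the 2807, because 1 hace1 transcript is listed. Its gene counts were 107, 116, 128 and 134, and the share of the listed transcript hace1-001 was 0.880, 0.748, 0.759 and 0.724. Control A had the highest share, the other 3 libraries lay close together, and the groups overlapped. The splice product that the oligonucleotide is meant to cause is not a listed transcript, so these shares give no check of the knockdown.

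The total gene counts were 5192490, 8596019, 9856173 and 10413981, so control A was the shallowest library, and the genes taken held 55.9% to 57.6% of them. A share follows the reads of a transcript and not its number of molecules. In 90 genes with 2 transcripts that each have exons of their own, the ratio of the shares differed from the ratio of counts per base of those exons by a median of 1.32 on the log2 scale. The gap was 0.36 when counts per base were multiplied by transcript length. Longer transcripts therefore take larger shares at the same number of molecules. Nothing in the sources says that the libraries came from separate clutches, so the spread between 2 libraries may be partly technical. In whole embryos a difference in share can come with a different mix of tissues or with different processing in 1 tissue, and these cannot be told apart.

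In most genes 1 transcript took at least 0.5 of the listed shares, and in only 128 to 140 genes, depending on the library, did none. Of the 2807 genes, 1400 had 2 listed transcripts, 743 had 3, 315 had 4, 191 had 5 and 158 had 6 or more. Among the 8437 transcripts, 2016 (23.9%) had a mean share below 0.01 and 641 (7.6%) had a mean share of 0.9 or more. The leading transcript took 0.9 or more of the listed shares in 46.9% to 49.3% of genes, depending on the library. It was the longest spliced transcript in 2240 genes (79.8%), and it still led after division by length in 2662 genes (94.8%). In 1517 genes with both manually curated and automatically built transcripts, as their names tell, the leader was a curated one in 854 (56.3%).

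The genes with the most listed transcripts show how uneven the shares are. The gene ldb3a, which encodes a protein of the muscle Z-disc, has 20 listed transcripts. One of them, ldb3a-008, had shares of 0.599, 0.670, 0.591 and 0.596, and no other reached 0.12 in any library. The gene cast, which encodes the calpain inhibitor calpastatin, has 15, and cast-001 had 0.749, 0.814, 0.828 and 0.824. The gene msi2b, which encodes an RNA-binding protein of neural progenitors, has 14. Its leading transcript msi2b-001 had only 0.186, 0.134, 0.171 and 0.289. The shares of the 14 listed transcripts together left 0.613, 0.690, 0.611 and 0.513 unassigned.

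The shares of a gene's listed transcripts did not add up to 1. The remainder, called the unlisted share here, had a median over genes of 0.070, 0.093, 0.074 and 0.068. The sources used here do not state what the counting program put there. The exon counts of each transcript were summed and divided by the gene count. The result lay within 0.01 of its share among listed transcripts in 99.0% to 99.1% of transcripts, depending on the library. The gene count therefore holds the listed transcripts only, and the unlisted share lies outside it. Across the 2807 genes the unlisted share followed the total intron length of the gene, with a Spearman rank correlation of 0.69, given as a description because all genes share the same libraries. The 562 genes with the shortest introns, up to 7622 bases in all, had a median unlisted share of 0.021. The 562 with the longest, from 67461 bases, had 0.225. Among the functional lists described below, 64 genes of translation factors and ribosomal proteins, with a median of 5036 intron bases, had a median unlisted share of 0.013, and 50 neuronal genes, with 60648 intron bases, had 0.172. The cryptochrome gene cry2b was an extreme, with unlisted shares of 0.804, 0.845, 0.910 and 0.917. Both hace1 libraries were above both controls for this gene, whose protein represses the clock. The unlisted share itself was tested as 1 value per gene with limma, and no gene of 4461 passed an adjusted p of 0.05 (smallest adjusted p 0.777, Benjamini-Hochberg). At an unadjusted p below 0.05 there were 183 of the 2807 genes, against a background of 5.67% over all 4461 genes tested. Of the 183, 42 had a higher and 141 a lower unlisted share in the hace1 libraries. No background by direction is at hand for this split. The median unlisted share was highest in control B, and the part of that library in the split was not tested.

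**Figure D1:**
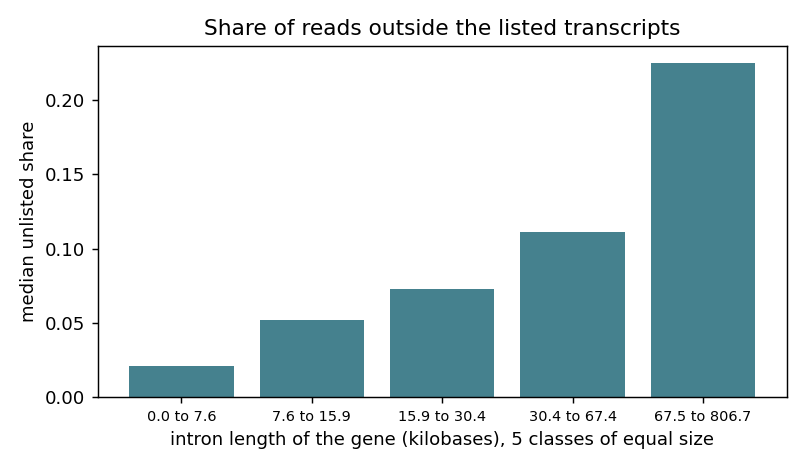
Median unlisted share, 1 minus the summed shares of a gene's listed transcripts, over the 2807 genes in 5 classes of total intron length. The bars go from 0.021 in the class of shortest introns to 0.225 in the class of longest.

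The question of the study was what differs between hace1 and control morphants, and no transcript share passed the test for a difference. The test was limma on the log-odds of each share, fitted to all 7497 transcripts of genes with 2 or more listed transcripts, a gene count of at least 10 in every library and a mean share from 0.05 to 0.95. Of these, 4598 were transcripts of the 2807 genes. No transcript had an adjusted p below 0.05, so the background of calls over all transcripts fitted was 0.0%, and the smallest adjusted p was 0.762. At an unadjusted p below 0.05 there were 306 of the 4598 (6.66%), against a background of 6.23% over all 7497. Of the 306, 165 were higher and 141 lower in the hace1 libraries. A second method, limma's voom and diffSplice, also called no transcript and no gene. At an unadjusted p below 0.05 it had 445 transcripts of the 2807 genes (11.9%, background 10.3% over all 6050 fitted) and 213 of 1652 of the genes (background 11.2% over all 2667 tested). With 2 libraries per group, an exact permutation test of a single value cannot go below a two-sided p of 0.333.

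The libraries did not separate by group. The distance between 2 libraries was taken per gene as the summed absolute difference of its transcript shares divided by 2. Its median over the 2807 genes was 0.0490 between the 2 controls and 0.0284 between the 2 hace1 libraries. Control A stood at a similar distance from every other library, 0.0501 from hace1 A and 0.0494 from hace1 B. Control B was nearer to the hace1 libraries, at 0.0312 and 0.0379, than to control A. The mean of the 4 medians between groups was 0.0422 ± 0.0092 (SD, n = 4 pairs that share libraries). In the 781 genes with a mean count of 1000 or more control B was again nearer to the hace1 libraries than to control A, with 0.0387 between the controls, 0.0192 between the hace1 libraries, and 0.0221 and 0.0273 between control B and the hace1 libraries. The depth of control A moves with this distance, and its part in it was not tested.

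**Figure D2:**
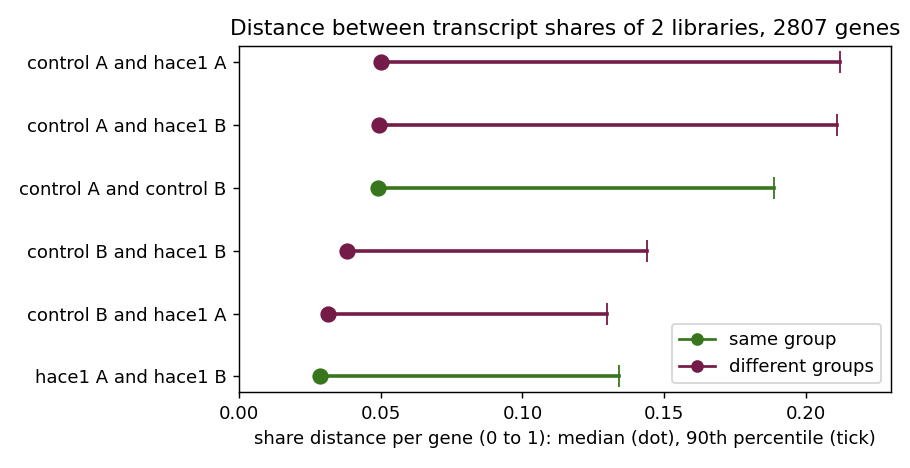
Distance between the transcript shares of each pair of libraries over 2807 genes, with the median as a dot and the 90th percentile as a tick. The 3 pairs that include control A lie between 0.0490 and 0.0501, and the pairs without it lie between 0.0284 and 0.0379.

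The leading transcript was the same in all 4 libraries in 2453 genes (87.4%). In 49 genes (1.75%) 1 transcript led in both controls and another in both hace1 libraries. Without control A, control B, hace1 A or hace1 B this count was 95, 158, 109 and 86, with fewer libraries that had to concur. In 106 genes control A alone had another leader, against 43 for control B, 37 for hace1 A and 60 for hace1 B. The remaining 59 genes (2.1%) had other splits of the leader. No background over all 5288 genes with 2 or more listed transcripts is at hand for these counts. Any pair of libraries differed in the leader of 153 (hace1 A and B) to 245 genes (control A and hace1 B).

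Differences of 0.2 or more in mean share with groups that did not overlap were found for 161 of the 4598 transcripts, in 103 genes. That is 3.50%, against a background of 5.19% over all transcripts fitted, so it is no more frequent in these well-counted genes. Of the 161, 89 were higher in the hace1 libraries (background 2.79%) and 72 lower (background 2.40%). Control A was the control farther from the hace1 mean in 126 of the 161. Without control A, control B, hace1 A or hace1 B the count was 166, 504, 272 and 223, with fewer libraries that had to concur. At a difference of 0.1 or more there were 613 (13.3%, background 16.6%). Non-overlap alone held for 1863 transcripts (40.5%, background 39.2%).

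How much sequence a transcript has to itself went with how much its share varied. A base is called private here when no other listed transcript of the gene has it in an exon. Of the 8437 transcripts, 1925 (22.8%) had no private base and 1401 (16.6%) had 1 to 50, and 1239 genes (44.1%) had at least 1 transcript with none. Differences of 0.2 or more made up 5.34% of the fitted transcripts with no private base, 6.93% of those with 1 to 50 and 0.341% of those with more than 1000. The 2 controls differed by a median of 0.076 in share with no private base and by 0.040 with more than 1000, and the 2 hace1 libraries by 0.049 and 0.025. The classes differ in this way within a group as well as between groups.

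**Figure D3:**
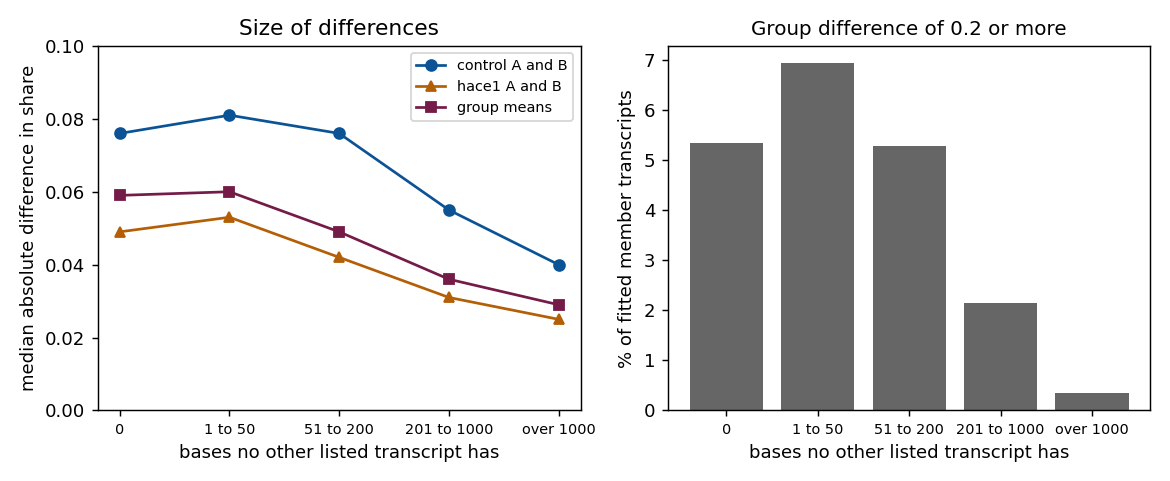
Left, the median absolute difference in share between the 2 controls, between the 2 hace1 libraries and between group means, for fitted transcripts by the number of private bases. Right, the percentage of those transcripts with non-overlapping groups and a difference of 0.2 or more, which is 6.93% at 1 to 50 private bases and 0.341% above 1000.

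Whether the outer exons of a gene's transcripts overlap also went with the distance. Genes were sorted by whether any pair of their listed transcripts has first exons, or last exons, that do not overlap. Internal exons and smaller shifts of the ends were not considered. Genes with separate last exons but overlapping first exons (522 genes) had median distances of 0.030 between the controls, 0.017 between the hace1 libraries and 0.025 between groups. The 1130 genes with separate first and separate last exons had 0.051, 0.029 and 0.045. The 661 genes with separate first exons but overlapping last exons had 0.057, 0.034 and 0.049. The 494 with overlapping first and last exons had 0.061, 0.036 and 0.049.

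The 24 genes with the largest non-overlapping differences had a transcript that was 0.304 to 0.418 apart between groups. Genes with a placeholder or clone name as symbol were left out of this ranking. In 16 the transcript was higher and in 8 lower in the hace1 libraries, and 21 had a gene count under 500 in at least 1 library. Their unadjusted p ran from 0.00104 to 0.107 and their adjusted p from 0.762 to 0.767. The transcript had no private base in 5 of the 24 and 1 to 50 in 9. Control A was the control farther from the hace1 mean in 20 of the 24.

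**Figure D4:**
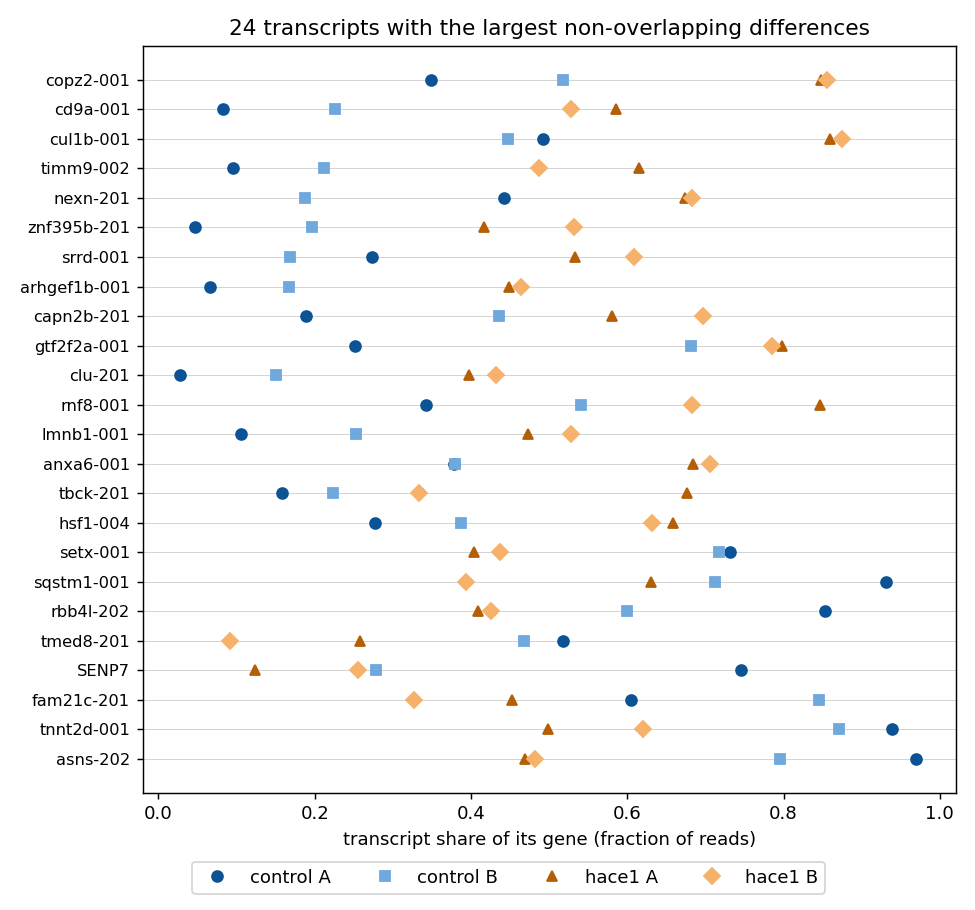
Shares of the transcript with the largest difference in each of 24 genes, 1 symbol per library. The hace1 symbols lie on 1 side of the control symbols in every row, as the choice requires, and in 8 of the 24 rows the 2 controls are at least as far apart as the nearest values of the groups.

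The gene tnnt2d (ENSDARG00000002988, Zv9 chromosome 25, 20707521 to 20718141, plus strand) encodes a troponin T, the subunit that ties the troponin complex to tropomyosin on the thin filament. Its transcript tnnt2d-001 had shares of 0.939, 0.871, 0.498 and 0.620, and tnnt2d-202 had 0.030, 0.080, 0.451 and 0.319. Both controls were above both hace1 libraries for the first and below them for the second, with a log2 odds difference of 3.55 ± 0.63 (SE) for tnnt2d-202 (limma adjusted p = 0.762, unadjusted 0.00327). The 2 transcripts have overlapping first and last exons. An internal exon of 8 bases that tnnt2d-001 alone has was counted 4.7, 3.9, 2.2 and 1.5 times, which is 7.9, 4.4, 2.7 and 2.1 per 1000 counts of the gene. Per count of the gene both controls were above both hace1 libraries on this exon, on very few counts.

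The gene nexn encodes nexilin, an actin-binding protein of the Z-disc. Of its 8 listed transcripts, nexn-201 had shares of 0.442, 0.188, 0.674 and 0.683, and nexn-001 had 0.498, 0.712, 0.275 and 0.252. The leader was nexn-001 in both controls and nexn-201 in both hace1 libraries. Transcript nexn-001 begins further upstream with 1 exon more, and neither has more than 1 private base once the other 6 are taken into account.

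The gene lmnb1 encodes lamin B1 of the nuclear envelope and was the deepest counted of the 24, with gene counts of 1887, 2643, 3272 and 3629. The share of lmnb1-001 was 0.106, 0.253, 0.473 and 0.528, and that of lmnb1-201 was 0.864, 0.714, 0.502 and 0.450. The groups did not overlap, and the 2 hace1 libraries disagreed on which transcript led. The log2 odds difference of lmnb1-001 was 2.32 ± 0.58 (SE; limma adjusted p = 0.762, unadjusted 0.0124). Transcript lmnb1-001 has 1 private base and lmnb1-201 has none. The 2 also differ at an internal exon, which is 171 bases long in lmnb1-001 and 126 in lmnb1-201. The extra bases are not private because lmnb1-002 has them too.

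The gene arhgef1b encodes a guanine nucleotide exchange factor. Its transcript arhgef1b-202 had shares of 0.773, 0.684, 0.443 and 0.449, against 0.066, 0.167, 0.449 and 0.464 for arhgef1b-001, which begins further upstream. The exons that arhgef1b-001 alone has were counted 0.0, 0.3, 0.0 and 4.6 times, so 1 hace1 library held nearly all of these counts. The gene fam21c encodes a subunit of the complex that drives actin assembly on endosomes, and fam21c-201 had 0.605, 0.845, 0.453 and 0.327. The gene capn2b encodes a calcium-dependent protease that cuts cytoskeletal proteins, and capn2b-001 had 0.779, 0.484, 0.396 and 0.272. In both, the 2 controls were farther apart than the groups were at their nearest.

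The gene cul1b encodes a cullin, the scaffold of a multi-subunit ubiquitin ligase, and had the smallest unadjusted p of the 24, 0.00104 (limma adjusted p = 0.762). The share of cul1b-001 was 0.492, 0.447, 0.860 and 0.875, and that of cul1b-201 was 0.438, 0.393, 0.019 and 0.052. Here each group was tight, with 0.470 ± 0.032 in the controls and 0.867 ± 0.011 in the hace1 libraries (SD, n = 2 each). Both transcripts have 22 exons. Apart from their outer ends they differ at 1 internal exon, which is 111 bases long in cul1b-001 (Zv9 chromosome 24, 17921107 to 17921217) and 108 in cul1b-201, a gap of 1 codon. Transcript cul1b-001 has 23 private bases.

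The heat shock factor gene hsf1 encodes the transcription factor that induces chaperones. Its transcript hsf1-004 had shares of 0.277, 0.387, 0.659 and 0.632, and hsf1-001 had 0.554, 0.399, 0.196 and 0.212. The 2 share their outer ends, and hsf1-004 has 1 exon more. The gene sqstm1 encodes p62, a receptor that brings ubiquitin-tagged cargo to autophagy, and sqstm1-001 had 0.931, 0.712, 0.630 and 0.394. The 2 hace1 libraries were farther apart for sqstm1-001 than the groups were at their nearest. The gene rnf8 encodes a ubiquitin ligase of the DNA damage response, and rnf8-001 had 0.343, 0.541, 0.847 and 0.683. The SUMO protease gene SENP7 has 3 listed transcripts under 1 name, and the one of 3129 bases had 0.746, 0.279, 0.123 and 0.256. Control B and hace1 B were within 0.03 of each other for that transcript. Without control A the SENP7 difference went from -0.322 to -0.089.

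The gene asns encodes asparagine synthetase, which makes asparagine and is known to respond to amino acid shortage. Its transcript asns-202 had shares of 0.969, 0.796, 0.469 and 0.482, and asns-201 had 0.012, 0.180, 0.508 and 0.489, so the leader differed between groups. The difference in asns-202 was -0.407 in share (limma adjusted p = 0.762, unadjusted 0.0215). The 2 transcripts begin at different first exons and also differ at their downstream end. There asns-202 has a last exon of 4155 bases, where asns-201 has separate exons of 1720 and 709 bases. Transcript asns-202 has 1748 private bases but no exon made up of private bases alone, so it has no exon count of its own. The exons that asns-201 alone has, 66 bases in all, were counted 0.0, 3.9, 0.0 and 1.5 times, which does not follow the shares.

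The gene copz2 encodes a subunit of the COPI coat of Golgi vesicles and had the largest difference of all. The share of copz2-001 was 0.349, 0.518, 0.848 and 0.855, and that of copz2-002 was 0.570, 0.408, 0.093 and 0.072. The log2 odds difference of copz2-001 was 2.90 ± 0.49 (SE; limma adjusted p = 0.762, unadjusted 0.0028). The 2 controls had different leaders, and copz2-001 has 8 private bases. It also has an exon of 33 bases that copz2-002 lacks but copz2-201 has. For copz2-001 that exon was counted 1.1, 4.0, 6.9 and 0.9 times.

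The gene cd9a encodes a tetraspanin, a membrane protein that organises adhesion and signalling receptors. Its transcript cd9a-001 had shares of 0.082, 0.226, 0.585 and 0.528, and cd9a-002 had 0.832, 0.704, 0.359 and 0.434. The exon of 404 bases that cd9a-002 alone has was counted 21.4, 22.1, 14.5 and 13.3 times, or 139.1, 110.2, 57.1 and 63.2 per 1000 counts of the gene. The exon of 185 bases that cd9a-001 alone has was counted 0.0, 0.0, 0.3 and 0.0 times. Both are first exons. The counts were lower on that of cd9a-002 in the hace1 libraries, as its share was, and nearly 0 on that of cd9a-001 in all 4.

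The secreted chaperone gene clu, which encodes clusterin, had 3 transcripts that together filled the gene. The short clu-002 had overlapping groups, with 0.394, 0.428, 0.420 and 0.340. The exchange lay between clu-001, with 0.541, 0.401, 0.155 and 0.199, and clu-201, with 0.028, 0.150, 0.397 and 0.432. The exon that clu-001 alone has was counted 1.6, 4.7, 1.3 and 2.4 times, or 14.4, 23.5, 4.1 and 6.6 per 1000 counts of the gene. Per count of the gene both controls were above both hace1 libraries, on few counts.

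The other genes of the 24 were mostly of low count. The mitochondrial import chaperone gene timm9 had timm9-002 at 0.095, 0.212, 0.615 and 0.487. The annexin gene anxa6, whose protein binds membranes with calcium, had anxa6-001 at 0.378, 0.379, 0.684 and 0.706, with the controls nearly identical. The helicase gene setx had setx-001 at 0.731, 0.717, 0.404 and 0.437, on gene counts of 102 to 148. For anxa6 and setx the gap between groups was far wider than either group's spread, and neither passed the test (limma adjusted p = 0.762 for both). Little sequence tells the forms apart. Transcript anxa6-001 differs from anxa6-202 only at the outer ends, with a last exon of 341 bases against 336. The exon of 121 bases that setx-001 alone has was counted only 1.2, 1.6, 0.0 and 1.0 times.

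In some genes of the translation machinery control A held 1 form almost alone. The gene rplp1 encodes an acidic protein of the ribosomal stalk and had gene counts of 30597, 58733, 77466 and 54508. Its transcript rplp1-001 had shares of 0.985, 0.567, 0.472 and 0.474, and rplp1-002 had 0.014, 0.429, 0.522 and 0.519. The leader was rplp1-001 in both controls and rplp1-002 in both hace1 libraries, and control B was far nearer to the hace1 libraries than to control A. The limma adjusted p of rplp1-001 was 0.767.

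Left with control A as the only control, the limma test called 7 transcripts (0.0934% of the 7497), all in 5 very deeply counted genes, and its single control is assumed to vary as the hace1 libraries do. These were rplp1-001 and rplp1-002, rps4x-001 and rps4x-003, rpl10-008, rpl31-004 and ppiaa-004. The first 4 genes encode ribosomal proteins and ppiaa encodes a cyclophilin, a prolyl isomerase. The share of rps4x-001 was 0.973, 0.493, 0.517 and 0.497. That of rpl10-008 was 0.002, 0.102, 0.130 and 0.116, and that of ppiaa-004 was 0.003, 0.111, 0.118 and 0.107. In each, control B was nearer to both hace1 libraries than to control A, and the adjusted p with all 4 libraries was 0.767 to 0.770. The transcripts rps4x-001, rps4x-003, rpl10-008, rpl31-004 and ppiaa-004 were named after their values were seen.

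Shares were then set beside the counts of exons that only 1 transcript has, which do not depend on how shared reads were divided. Of the 4598 transcripts, 1263 had at least 100 bases of such exons and a count of at least 10 on them in every library. Among these 1263, 69 in 67 genes had non-overlapping groups and a difference in share of 0.1 or more. Such a difference was found for 13.3% of all 4598 transcripts and 16.6% of all 7497 fitted. For 61 of the 69 the count on those exons, per count of the gene, differed in the direction of the share, and in 41 of these the groups did not overlap in that measure either. Groups did not overlap in that measure for 38.0% of all 1263 transcripts with such exons. Over the same 1263, whatever their difference, the direction was the same for 847. The direction of a share and of its own exons are 2 readings of the same libraries, not a second experiment. The counts on these exons are also part of the share, because a transcript's exon counts add up to its share among listed transcripts. The same direction is therefore partly built in, most of all where a transcript is largely private. In IKBIP-201, 1 of the 69, all 5530 bases are in such exons. Their denominators also differ, because the gene count does not hold the unlisted share. A different unlisted share can thus move the share and not the exon measure.

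One of the 69 was in cdc42, which encodes a small GTPase that acts on the actin skeleton. It was singled out after its values were seen. In mammals cdc42 has a widespread and a brain-enriched form that differ in their last exon. In the fish annotation cdc42-002 (ENSDARG00000044573, Zv9 chromosome 11, 40353979 to 40375728) ends in an exon of 762 bases at 40374967 to 40375728, and the other 2 transcripts end further downstream. The share of cdc42-002 was 0.279, 0.271, 0.163 and 0.127 on gene counts of 1082, 2835, 2933 and 3232. Its own last exon was counted 191.7, 521.3, 369.0 and 303.7 times, and that of cdc42-001 was counted 559.0, 1509.7, 1936.5 and 2162.9 times. The ratio of the cdc42-002 last exon to the summed last exons of the other 2 was 0.335, 0.328, 0.184 and 0.132. In the share and in this ratio the controls were close together and above both hace1 libraries. The limma adjusted p of the share was 0.762 and the unadjusted p was 0.0143.

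After cd9a-002, the next largest differences among the 69 were in anxa1c, ppap2b and pex5, all named after their values were seen. The share of anxa1c-001, from a gene that encodes an annexin, was 0.737, 0.594, 0.414 and 0.436, and its own exons held 81.1, 66.8, 46.0 and 48.1 per 1000 counts of the gene. The share of ppap2b-201, from a gene that encodes a lipid phosphate phosphatase, was 0.738, 0.407, 0.361 and 0.318, with 42.4, 22.2, 21.6 and 18.9 per 1000. Both readings of anxa1c-001 kept the groups well apart, while in ppap2b-201 control A was apart from the other 3. For pex5, which encodes the receptor that brings enzymes into peroxisomes, the 2 readings parted: pex5-001 had shares of 0.396, 0.568, 0.671 and 0.746, and its own exons held 33.3, 55.2, 44.3 and 44.5 per 1000, with overlapping groups.

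**Figure D5:**
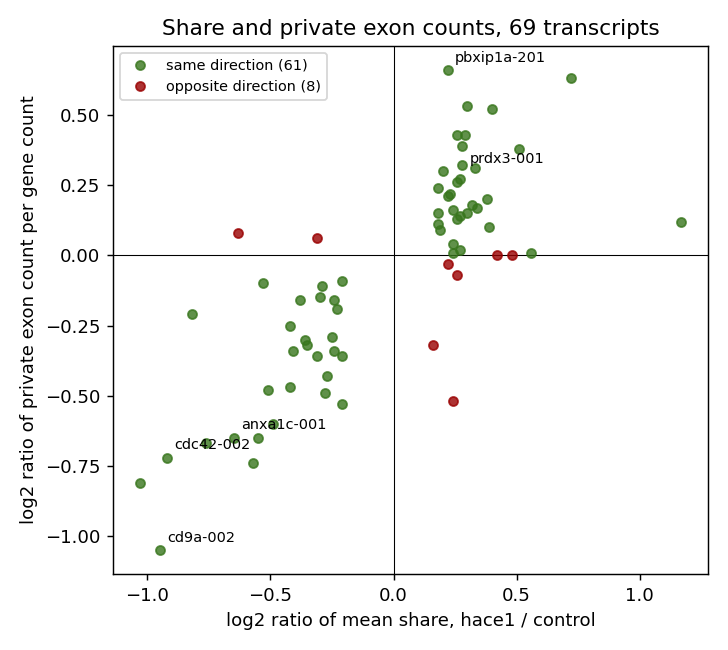
For 69 transcripts with at least 100 bases of exons of their own, the log2 ratio of the mean share (hace1 over control, x axis) against the log2 ratio of the counts on those exons per gene count (y axis). The direction was the same for 61 and opposite for 8, and the exon counts are themselves part of the share.

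The backgrounds given for the lists are over all 7497 transcripts fitted, which include genes of lower count. Over the 4598 transcripts of the 2807 genes they were 40.5% for non-overlap, 13.3% at 0.1 or more and 3.50% at 0.2 or more. The muscle contractile list held 41 of the 2807 genes. Of its 78 fitted transcripts none passed the test, 38 (48.7%, background 39.2%) had non-overlapping groups and 6 differed by 0.2 or more (background 5.19%), in atp2a1, nexn and tnnt2d. The same transcript led in all 4 libraries in 34 of its 41 genes, against 87.4% of all 2807. The median absolute difference in the list was 0.034, against 0.041 over all 4598. Its genes were less dominated by 1 form, with a median leading share of 0.778 of the listed shares against 0.879 over all 2807 genes, given as a description.

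The gene atp2a1 (ENSDARG00000020574, Zv9 chromosome 3, 26878041 to 26953764, minus strand) encodes the calcium pump of the fast muscle sarcoplasmic reticulum. In mammals it has an adult form that keeps a short exon just before the last one and a neonatal form that skips it. In the fish annotation atp2a1-002 has an exon of 40 bases at 26880213 to 26880252, the one before its last, which atp2a1-001 lacks. The share of atp2a1-002 was 0.624, 0.600, 0.394 and 0.405, and that of atp2a1-001 was 0.150, 0.244, 0.429 and 0.448, on gene counts of 88418, 157749, 249284 and 276412. Each group was tight, with atp2a1-002 at 0.612 ± 0.017 in the controls and 0.399 ± 0.008 in the hace1 libraries (SD, n = 2 each). The log2 odds difference was -1.25 ± 0.34 (SE; limma adjusted p = 0.762, unadjusted 0.0175).

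The count per base of the 40-base exon was 0.525, 0.443, 0.369 and 0.373 of that of the exon before it, summed over both transcripts. Both hace1 libraries were below both controls, and the gap between the groups was 0.071 against 0.082 between the 2 controls. Per 1000 counts of the gene the 40-base exon held 11.8, 12.7, 9.1 and 9.0, with both hace1 libraries again below both controls. Another listed form, atp2a1-004, of only 348 bases, had shares of 0.171, 0.122, 0.109 and 0.089. The other abundant genes of the list had overlapping groups. The fast myosin light chain gene mylz3 had mylz3-010 at 0.598, 0.543, 0.525 and 0.548. The fast myosin heavy chain gene myhz1.1 had myhz1.1-001 at 0.686, 0.634, 0.687 and 0.617, but it has close copies nearby, among them myhz1.3, and reads could have been divided between them.

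The splicing regulator list held 63 of the 2807 genes, many of which are known to control their own messages through alternative exons. None of its 119 fitted transcripts passed the test, 7 differed by 0.1 or more without overlap (5.88%, background 16.6%) and none by 0.2 (background 5.19%). Groups did not overlap for 58 of the 119 (48.7%, background 39.2%). The same transcript led in all 4 libraries in 60 of the 63 genes, against 87.4% of all 2807. The cold-inducible RNA-binding protein gene cirbp divided its reads over 4 transcripts, of which cirbp-201 had 0.231, 0.415, 0.387 and 0.393 and cirbp-002 had 0.475, 0.287, 0.288 and 0.256. Control A was apart from the other 3 in both. The gene syncrip, which encodes an hnRNP, had syncrip-001 at 0.517, 0.687, 0.742 and 0.740, again with control A the lowest. In hnrnpaba, another hnRNP gene, hnrnpaba-001 held 0.961 to 0.983 in every library.

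The neuronal list held 50 genes, with 34 of 85 fitted transcripts not overlapping (background 39.2%), 3 apart by 0.1 or more (background 16.6%) and none by 0.2 (background 5.19%). The same transcript led in all 4 libraries in 44 of the 50 genes. The deeply counted genes of the list were nearly single-form. The pan-neuronal RNA-binding protein gene elavl3 had elavl3-001 at 0.902, 0.884, 0.909 and 0.924. The clathrin heavy chain gene cltca had cltca-001 at 0.966 to 0.986, and stmn1a, which encodes a microtubule regulator of growing neurons, had stmn1a-001 at 0.992 to 0.998. The kinase gene camk2g1 had camk2g1-001 at 0.796, 0.772, 0.826 and 0.869, with the hace1 libraries above the controls by less than 0.1. The unlisted share of camk2g1 was 0.124, 0.186, 0.121 and 0.087, lower in both hace1 libraries than in both controls. Its part in the difference was not tested.

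Of the HECT family of ubiquitin ligases, to which hace1 belongs, 5 genes were among the 2807. None of their 10 fitted transcripts passed the test. The gene trip12 had trip12-001 at 0.922, 0.908, 0.932 and 0.935. The gene wwp2 had wwp2-201 at 0.753, 0.439, 0.451 and 0.360, with overlapping groups and control A the highest.

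The list of Rac and actin regulators held 24 genes, and the same transcript led in all 4 libraries in 22. Of its 39 fitted transcripts, 18 (46.2%, background 39.2%) had non-overlapping groups. A difference of 0.1 or more without overlap was found for 5 (12.8%, background 16.6%). The only one at 0.2 or more was in pfn1, which encodes profilin, the protein that feeds actin monomers to growing filaments. Its transcript pfn1-001 had shares of 0.717, 0.504, 0.422 and 0.388, and pfn1-005, which starts further downstream, had 0.274, 0.457, 0.510 and 0.526. The exon of pfn1-004, another form, was counted 2.0, 0.9, 5.0 and 8.9 times. Control A and control B differed by more in pfn1-001 than control B and either hace1 library did. The genes pfn2l and pak2b varied little: pfn2l-001 was between 0.95 and 0.975 and pak2b-001 between 0.844 and 0.896. The list also holds eno3, an enolase gene and not a Rac or actin regulator, with eno3-001 between 0.764 and 0.831.

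The list of translation factors and ribosomal proteins held 64 genes, with 61 of 112 fitted transcripts not overlapping (54.5%, background 39.2%). Of the 112, 17 were apart by 0.1 or more (15.2%, background 16.6%, or 13.3% over the 4598). A difference of 0.2 or more was found for 5 (background 5.19%), in eef2a.1, rpl22l1 and rplp1. None passed the test, and the same transcript led in all 4 libraries in 54 of the 64 genes. The elongation factor gene eef1a1l1 varied little, with eef1a1l1-201 at 0.899, 0.910, 0.902 and 0.909. The ribosomal protein gene rps2 had rps2-201 at 0.341, 0.588, 0.606 and 0.606, with control A apart. The gene rpl9 had rpl9-004 at 0.929, 0.901, 0.870 and 0.839, with the controls above the hace1 libraries and a difference of -0.061.

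The extracellular matrix list held 28 genes, with 6 of 47 fitted transcripts (12.8%, background 16.6%) apart by 0.1 or more and 2 by 0.2 or more (background 5.19%), both in serpinh1b, which encodes the collagen chaperone of the endoplasmic reticulum. The leading transcript was the same in all 4 libraries in 27 of the 28. The type I collagen gene col1a1a had col1a1a-001 at 0.985 to 0.988 and the cartilage collagen gene col9a2 had col9a2-001 at 0.916 to 0.928. The periostin gene postnb used several forms, with postnb-001 at 0.528, 0.536, 0.506 and 0.536 and postnb-005 at 0.326, 0.217, 0.206 and 0.164. The cartilage collagen gene col11a2 had col11a2-004 at 0.572, 0.723, 0.752 and 0.755.

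The circadian clock and photoreceptor list held 8 genes, too few for its counts to be read, and 3 of its 12 fitted transcripts differed by 0.1 or more without overlap (background 16.6%). The cryptochrome gene cry2a had cry2a-001 at 0.782, 0.859, 0.849 and 0.837, and cry4 had cry4-001 at 0.799, 0.719, 0.698 and 0.826, both with overlapping groups. The nuclear receptor gene nr1d2b, a repressor of the clock, had nr1d2b-001 at 0.977, 0.984, 0.992 and 0.977.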

How the data were processed

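Whole-embryo RNA of 2 control and 2 hace1 morphant libraries was sequenced on an Ion Proton. The submitters' processing notes name TopHat2 2.0.6 with Bowtie2 2.0.2, cutadapt 1.2.1, the package DESeq and the build Zv9. The deposited annotated file gives gene and exon read counts and, for transcripts, a fraction of the gene per library. No source used here states the counting program. The other deposited values (normalised counts, log2 fold changes and p-values) were not used. Transcripts were tied to genes by name, chromosome, strand and position. The members and lists were chosen with earlier results of these data known. Shares were tested with limma 3.58.1 in R 4.3.3 on log2((share × gene count + 0.5)/((1 − share) × gene count + 0.5)). Group was the only term, with a variance trend on gene count and Benjamini-Hochberg adjustment over 7497 transcripts. The test was run on simulated data whose noise was set by hand. That noise was not matched to these libraries, so the simulation does not show what the test could find here. The gene count holds the listed transcripts only, so share × gene count is below a transcript's own count where the unlisted share is large. Counts per exon were used as deposited. Distances, leading transcripts and differences of 0.2 or more carry no test. The transcripts named in the text are those with the largest non-overlapping differences (24 genes), up to 4 genes of highest count per list, genes whose leader differs between groups, the 3 genes with most transcripts, and the genes at the count threshold. Genes with placeholder or clone names were not eligible for the 24. Alternatives varied the pseudocount, filters, scale, variance model, test, replicate block and libraries. No Zv9 genome sequence was used, so no transcript sequence is shown. The precision of each share is limited by the gene count, which is given beside it for some of the named genes only. Some genes that the naming rule takes, and 1 list, are not reported here.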

Additional observations from a re-analysis of the deposited data

How the results depend on the processing

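No transcript of the 2807 genes passed an adjusted p of 0.05 under any pseudocount, filter, scale, variance model, listed-only share or diffSplice alternative, and leaving out 1 library gave 0 to 7 calls, the 7 being without control B. With a replicate block, which the letters A and B do not justify (the deviations of same-letter libraries correlate at -0.01), there were 0 calls and 337 transcripts at an unadjusted p below 0.05. Unadjusted counts were 558 with no filter on mean share, 200 with no variance trend and 100 to 990 with 1 library left out, against 306. The count of differences of 0.2 or more, 161, became 613 at 0.1, 36 in genes with counts of at least 500 (of 1619 transcripts), 201 on shares among listed transcripts only and 166 to 504 with 1 library left out. In genes with counts of at least 500 the leading transcript was the same in 888 of 979 and differed between groups in 16. With 1 library left out, 2490 to 2559 genes had the same leader and 86 to 158 had leaders that differed between groups, since fewer libraries need to concur. Because the 24 transcripts were chosen for groups that do not overlap, leaving out a library cannot turn their sign, but it moved some sizes. Without control A the difference went from -0.322 to -0.089 in SENP7 and from 0.325 to 0.11 in gtf2f2a. On shares among listed transcripts only, it moved by more than 1 SD in cul1b, srrd, anxa6 and setx, to 0.431, 0.437, 0.369 and -0.335. Leaving out libraries for the count at 0.2, the listed-only share, the test of the unlisted share and the comparison with private exons were chosen after seeing the data. Gene counts near 100 and transcripts with few private bases limit how firmly any single share can be read.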
